A study of Homo sapiens with 4 samples.

Results

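The insulin-like growth factor (IGF) axis was described in SW620, a long-established cell line from a human colorectal cancer, through 10 genes of 19389 in the deposited table. The members are the ligand gene IGF2, the binding protein genes IGFBP2, IGFBP3, IGFBP4 and IGFBP6, the receptor genes IGF1R, IGF2R and INSR, and the adaptor genes IRS1 and IRS2. IGF2 was selected on its own FPKM values in the H2O2 and control libraries, where it differed strongly, so that contrast is given as a description with no test. The other 9 members were set by function. The control group was 2 libraries of SW620 cells described in the labels as control, with no vehicle or time named. The H2O2 group was 2 libraries of the same line given hydrogen peroxide, an oxidant, for 2 days, and the series title calls these cells senescent. Its dose is 150 µM in the labels of the samples but the same number of mM in the description of the design, so its unit is uncertain. The labels do not say whether the libraries within a group are separate cultures, and every p-value therefore measures only the spread between these libraries, which may be technical. Both groups rest on 1 cell line.

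IGF2 is a secreted growth factor that acts mainly through the IGF1 receptor and also through the insulin receptor, both tyrosine kinases that signal by way of the insulin receptor substrates to PI3K, AKT and mTOR. IGF2R, which is also the mannose 6-phosphate receptor, does not signal in that way: it takes IGF2 to lysosomes for breakdown. The IGF binding proteins hold IGFs outside the cell and can keep them from the receptors or prolong their presence, and IGFBP6 prefers IGF2 over IGF1. IGF2 is an imprinted gene with several promoters, and it is among the genes known to be overexpressed in a share of colorectal cancers.

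Expression was given as FPKM, the fragments of a gene divided by its transcript length and by the library's mapped fragments. Levels are thus scaled per length between genes and for depth between libraries, though libraries can still differ in summed FPKM. A gene was tested where it reached 1 FPKM in at least 2 of the 4 libraries, which 11318 genes did. All 10 members met this in both groups, the lowest value among them being 1.04 FPKM. Summed FPKM was 660860 to 695837 in the controls and 574782 to 617668 in the H2O2 libraries. All 19389 genes listed are protein-coding, so these sums and the rescaling to equal totals leave out other RNA. Rescaling to equal totals (TPM) moved the median log2 change of all tested genes by 0.17, from -0.03 to 0.14. The table holds no counts. The commonest ratio of low values to control 1 would put the mapped fragments of control 2, H2O2 1 and H2O2 2 at about 1.20, 1.21 and 1.37 times those of control 1. This is a rough estimate, since a ratio window 0.02 wide on the log2 scale held at most 6.88% of the 828 low genes compared between the controls, and absolute depth is unknown. The epithelial genes KRT8 and EPCAM stood at 2669 to 3616 FPKM and 215 to 336 FPKM over the 4 libraries. Markers of other cell types are given in full at the end, since some were near 0 and others were not.

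IGF2 stood at 3.48 and 5.45 FPKM in the controls and at 25.4 and 28.3 FPKM in the H2O2 libraries. Both H2O2 libraries lay far above both controls, and the gap between the groups was wider than the gap inside either. The mean was 4.47 ± 1.39 FPKM in controls and 26.9 ± 2.07 FPKM in H2O2-treated cells (SD, n = 2), a ratio of 6.02 and a difference of 2.37 ± 0.22 on the log2(FPKM + 1) scale (SE). That difference ranked 5 of 11318 tested genes. IGF2 was chosen on these values, so its rank and the gap between groups follow from the choice. SLPI, just above IGF2, had a log2 difference of 2.39, and AKAP12, just below IGF2, one of 2.27. With 1 library left out the IGF2 difference was 2.11 to 2.63. In a bulk culture, a change in the share of cells that make an mRNA and a change in the amount per cell cannot be told apart.

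The IGF2 gene lies on the minus strand of chromosome 11 from 2129112 to 2149603 (hg38, GENCODE release 29), with 8 coding transcripts that begin at 8 different positions. The deposited value is 1 figure per gene, so it does not show which promoter the mRNA came from. The deposited locus is shared by 3 genes, IGF2, INS and INS-IGF2, of which INS-IGF2 is a readthrough that overlaps IGF2 in the annotation. INS, the insulin gene, was listed at 0 in all 4 libraries, and INS-IGF2 was at or within rounding of 0 in each, so the deposited estimates for this locus lie on IGF2. TH, the tyrosine hydroxylase gene 14326 bases from IGF2 and named after its values were seen, stood at 2.23 and 1.87 FPKM in controls and 3.83 and 4.14 FPKM in H2O2 libraries. Its log2 difference was 0.71 ± 0.19 (limma adjusted p = 0.311), in the direction of IGF2 but smaller.

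**Figure D1:**
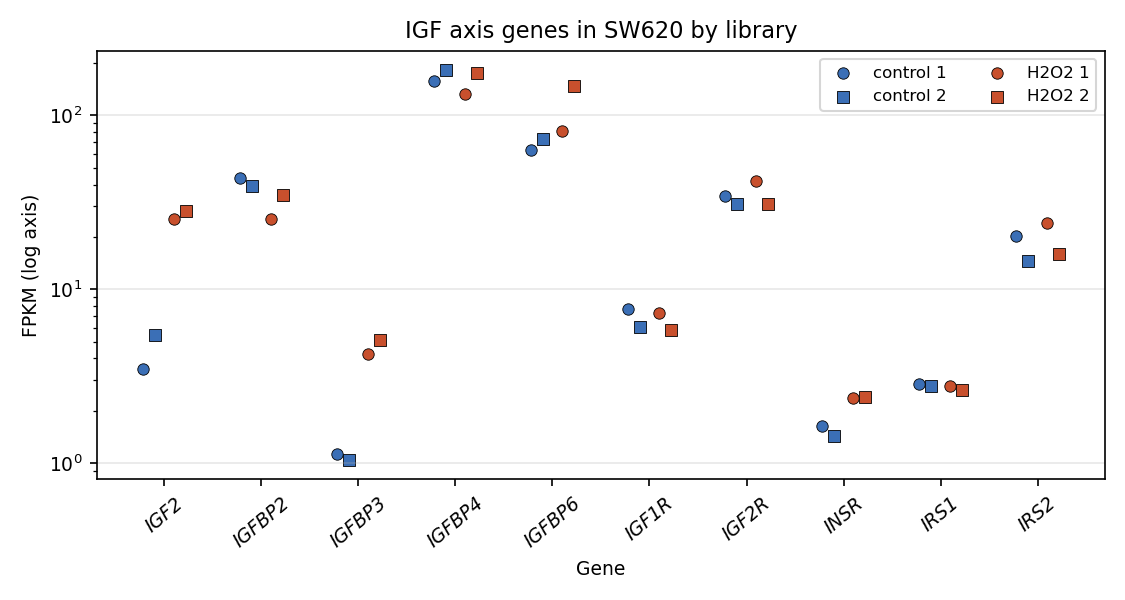
FPKM (log axis) of the 10 IGF axis genes in each library, blue for control and orange for H2O2, circles for library 1 and squares for library 2. IGF2 goes from 3.48 and 5.45 to 25.4 and 28.3 FPKM and IGFBP3 from 1.12 and 1.04 to 4.22 and 5.12 FPKM, while IGFBP4, IGF1R, IGF2R and IRS2 overlap between groups.

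The promoters of the members set by function whose H2O2 values both lay above both controls, IGFBP3, IGFBP6 and INSR, are shown with that of IGF2R, whose groups overlap. They are RefSeq sequences on GRCh38.p14, from 250 bases before to 50 bases after an annotated start, written 5′ to 3′ on the gene's strand, and capitals mark any of 5 motifs. IGFBP3 is chr7:45921223-45921522 on the minus strand, IGFBP6 is chr12:53097417-53097716 on the plus strand, INSR is chr19:7294365-7294664 on the minus strand and IGF2R is chr6:159968832-159969131 on the plus strand.
IGFBP3: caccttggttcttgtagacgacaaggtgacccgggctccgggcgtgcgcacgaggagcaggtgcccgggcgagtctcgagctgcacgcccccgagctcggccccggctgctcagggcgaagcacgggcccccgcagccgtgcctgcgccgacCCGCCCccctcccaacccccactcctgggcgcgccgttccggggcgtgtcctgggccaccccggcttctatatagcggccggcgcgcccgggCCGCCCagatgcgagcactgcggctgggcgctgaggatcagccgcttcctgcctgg
IGFBP6: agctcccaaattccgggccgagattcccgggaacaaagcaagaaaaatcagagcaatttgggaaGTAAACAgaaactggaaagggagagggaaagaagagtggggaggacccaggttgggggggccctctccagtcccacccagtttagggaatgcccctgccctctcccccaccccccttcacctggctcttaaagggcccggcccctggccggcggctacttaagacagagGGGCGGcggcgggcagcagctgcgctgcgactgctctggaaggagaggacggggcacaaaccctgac
INSR: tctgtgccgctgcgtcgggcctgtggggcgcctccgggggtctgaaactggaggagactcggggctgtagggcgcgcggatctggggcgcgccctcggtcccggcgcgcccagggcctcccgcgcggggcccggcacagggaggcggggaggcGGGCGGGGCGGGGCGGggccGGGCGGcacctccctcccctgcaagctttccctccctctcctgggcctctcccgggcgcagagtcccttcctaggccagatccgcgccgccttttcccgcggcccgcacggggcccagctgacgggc
IGF2R: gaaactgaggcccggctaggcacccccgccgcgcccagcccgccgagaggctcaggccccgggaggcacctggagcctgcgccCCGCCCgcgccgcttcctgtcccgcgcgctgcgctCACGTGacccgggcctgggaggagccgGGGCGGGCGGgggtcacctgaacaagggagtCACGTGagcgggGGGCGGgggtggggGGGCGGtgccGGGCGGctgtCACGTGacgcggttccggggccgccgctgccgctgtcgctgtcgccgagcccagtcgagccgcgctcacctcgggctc
Each motif was searched on both strands. The FOXO motif, written GTAAACA, was found in 1 member, IGFBP6, and in 3.42% of 35116 promoters of the same length. The E-box, whose letters are CACGTG, was found in IGF2R (3 matches) and IRS1 (1 match) alone of the members, and in 7.26% of promoters. Of the members whose groups overlap only IGF2R is shown, and it held the most E-box matches of any member. The AP-1 motif TGACTCA was found in no member's window and in 4.95% of promoters. The TATA box, searched as TATAAA, was found in IGFBP4 alone of the members and in 11.5% of promoters. The GC box GGGCGG, whose matches can overlap each other, was found in at least 1 window of each of the 9 members, among them IGFBP3 (2), IGFBP6 (1), INSR (4) and IGF2R (6), and 45.0% of all promoters hold at least 1. The table holds 11 windows for 9 members, and their median GC content was 74.7%, against 58.7% over all promoters. The IGFBP6 window was lower in GC than the other 3 shown, at 61.7%, with a ratio of observed to expected CpG of 0.422, against 0.783 in INSR, 0.867 in IGFBP3 and 0.886 in IGF2R. A match of letters is a description of the window and shows no binding.

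Among the binding proteins, IGFBP3 had the widest difference. IGFBP3, the main carrier of IGFs in blood and a known p53 target, stood at 1.12 and 1.04 FPKM in controls and at 4.22 and 5.12 FPKM in H2O2 libraries. Each group was tight and the groups did not overlap. The mean went from 1.08 ± 0.0549 to 4.67 ± 0.632 FPKM (SD, n = 2), a ratio of 4.32 and a log2 difference of 1.44 ± 0.19 (SE). It did not pass limma's test adjusted over all genes (adjusted p = 0.116), and its log2 difference lay above 99.5% of tested genes. Without H2O2 library 1 it passed (log2 difference 1.56; adjusted p = 0.0309), a fit in which the H2O2 group is 1 library and is assumed to vary as the controls do. It also passed after rescaling to equal totals (1.76; adjusted p = 0.036), over a range of adjusted p of 0.0019 to 0.311 in all alternatives.

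IGFBP6, the binding protein with a preference for IGF2, stood at 63.6 and 73.4 FPKM in controls and at 81.2 and 148 FPKM in H2O2 libraries. H2O2 library 2 lay well above the other 3, while H2O2 library 1 was close to the controls. The means were 68.5 ± 6.96 and 115 ± 47.3 FPKM (SD, n = 2), with a log2 difference of 0.67 ± 0.29 (limma adjusted p = 0.469). The difference depended on H2O2 library 2: it was 0.25 without that library, and 1.10 without H2O2 library 1, where it passed (adjusted p = 0.0461; range over all alternatives 0.0461 to 1.00). That pass sets 1 H2O2 library against the controls, whose spread alone it uses beside that of other genes.

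IGFBP2, a binding protein made by many epithelial tumours, stood at 43.7 and 39.1 FPKM in controls and at 25.5 and 34.8 FPKM in H2O2 libraries. Both H2O2 libraries were lower, library 1 more so. The log2 difference was -0.46 ± 0.20 (limma adjusted p = 0.473), -0.24 without H2O2 library 1, and -0.28 after rescaling to equal totals. IGFBP4, the most abundant member, stood at 157 and 182 FPKM in controls and at 132 and 176 FPKM in H2O2 libraries. Its groups overlapped, and the log2 difference of -0.15 ± 0.21 (adjusted p = 0.836) turned to 0.04 after rescaling to equal totals and after quantile normalization, and to 0.06 without H2O2 library 1.

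Put together per length, the 4 binding proteins summed to 265 and 296 FPKM in controls and to 243 and 364 FPKM in H2O2 libraries, so the total overlapped between groups. The make-up of that total differed. IGFBP6 made up 24.0% and 24.8% of it in controls and 33.4% and 40.7% in H2O2 libraries. IGFBP4 made up 59.2% and 61.6% in controls and 54.4% and 48.3% in H2O2 libraries, and IGFBP2 16.5% and 13.2% against 10.5% and 9.56%. IGFBP3 stayed the smallest part, at 0.422% and 0.353% in controls and 1.74% and 1.41% in H2O2 libraries. These shares are set against each other within a library and are a description with no test. Set against the same total, IGF2 mRNA amounted to 1.31% and 1.84% in controls and to 10.5% and 7.79% in H2O2 libraries. This percentage moves with the IGF2 value, on which IGF2 was chosen.

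**Figure D2:**
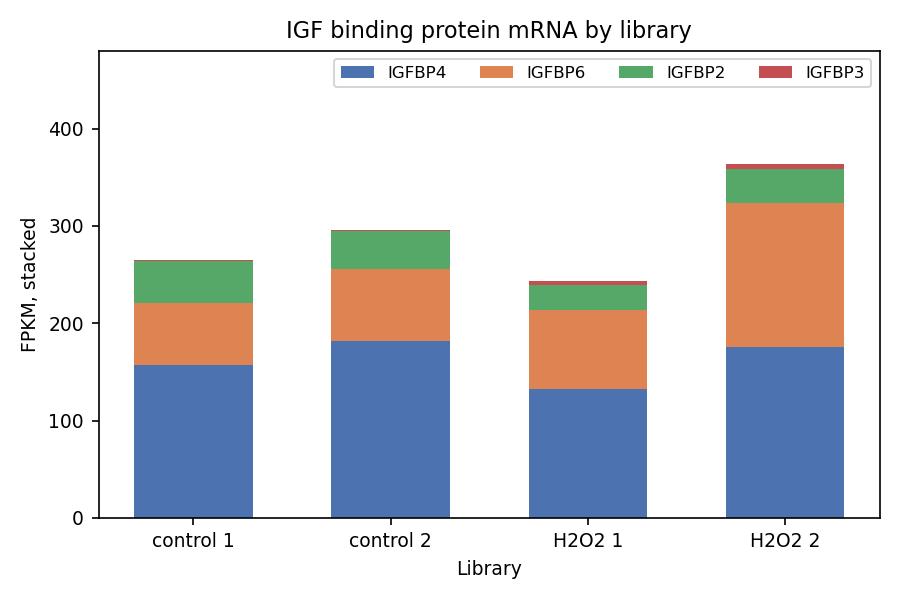
Stacked FPKM of IGFBP4, IGFBP6, IGFBP2 and IGFBP3 in each library. The totals run from 243 to 364 FPKM, with both extremes in the H2O2 group, and the IGFBP6 part is largest in H2O2 library 2 at 148 FPKM.

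Of the receptors, INSR was the one whose groups did not overlap. INSR, the insulin receptor, which also binds IGF2 in one of its splice forms, stood at 1.63 and 1.44 FPKM in controls and at 2.36 and 2.40 FPKM in H2O2 libraries. The spread inside each group was small beside the step between them. The means were 1.53 ± 0.134 and 2.38 ± 0.0274 FPKM (SD, n = 2), a ratio of 1.55, with a log2 difference of 0.42 ± 0.19 that did not pass (limma adjusted p = 0.488). It was 0.24 after quantile normalization and 0.18 with a pseudocount of 5. It was 0.62 after rescaling to equal totals and 0.60 with a pseudocount of 0.1. A gene-level value does not separate the splice forms.

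IGF1R, the main signalling receptor for IGF2, stood at 7.69 and 6.08 FPKM in controls and at 7.28 and 5.80 FPKM in H2O2 libraries. The groups overlapped, and the libraries numbered 1 were higher than those numbered 2 by nearly the same step in both, -0.29 and -0.28 on the log2 scale for 2 minus 1. The log2 difference between groups was -0.06 ± 0.20 (limma adjusted p = 0.945), and it turned to 0.10 after rescaling to equal totals. IGF2R, the clearance receptor, stood at 34.5 and 31.0 FPKM in controls and at 42.2 and 30.8 FPKM in H2O2 libraries. H2O2 library 1 was high and the other 3 lay close together. Its log2 difference was 0.14 ± 0.20 (adjusted p = 0.847), or -0.08 without that library.

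As ratios of FPKM, INSR to IGF1R was 0.212 and 0.236 in controls and 0.324 and 0.413 in H2O2 libraries, so the insulin receptor went from 17.5% and 19.1% of the 2 kinase receptors' mRNA to 24.5% and 29.2%. Their sum overlapped, at 9.32 and 7.52 against 9.64 and 8.20 FPKM. The ratio of IGF2 to its clearance receptor IGF2R was 0.101 and 0.176 in controls and 0.602 and 0.919 in H2O2 libraries. That ratio contains IGF2 and moves with the value it was chosen for.

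IRS1, an adaptor that couples both kinase receptors to PI3K, stood at 2.85 and 2.78 FPKM in controls and at 2.77 and 2.64 FPKM in H2O2 libraries. It was nearly level over the 4 libraries, the H2O2 values being lower by a hair, and its log2 difference of -0.04 ± 0.18 (limma adjusted p = 0.963) turned to 0.11 after rescaling to equal totals. IRS2, the second adaptor and a known FOXO target, stood at 20.3 and 14.6 FPKM in controls and at 24.1 and 15.9 FPKM in H2O2 libraries. Here the libraries numbered 1 were high and those numbered 2 low in each group. Its log2 difference was 0.18 ± 0.26 (adjusted p = 0.845), with -0.04 without control 2 and -0.11 without H2O2 library 1. Per length, IRS2 mRNA stood at 7.11 and 5.26 times IRS1 in controls and 8.71 and 6.03 times in H2O2 libraries.

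**Figure D3:**
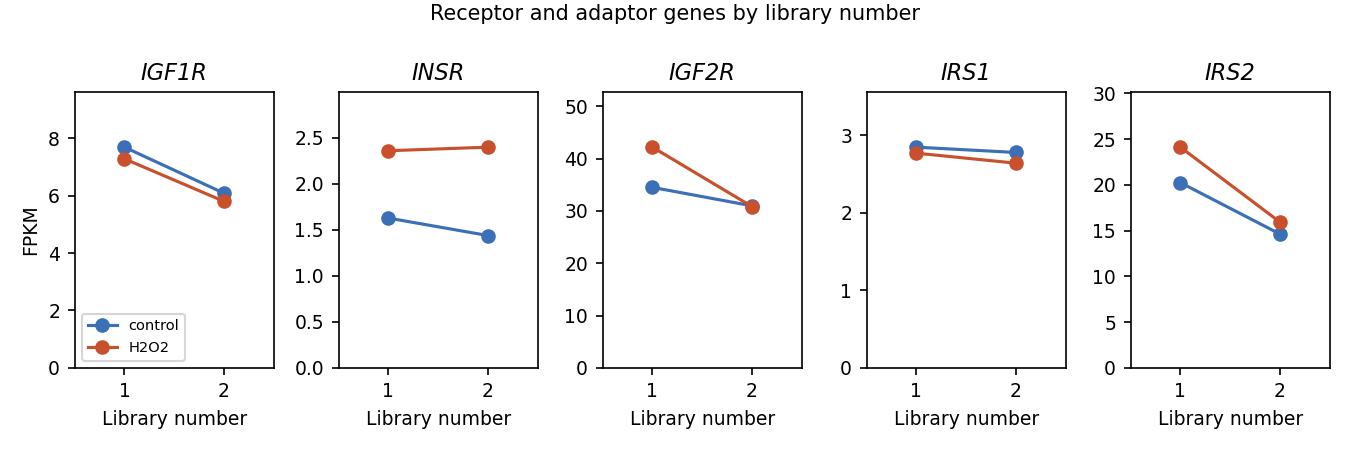
FPKM of the receptor and adaptor genes against library number, with a line joining the 2 libraries of a group (blue control, orange H2O2); each panel has its own axis from 0. IGF1R goes from 7.69 to 6.08 and from 7.28 to 5.80 FPKM between libraries 1 and 2, and INSR separates by group, at 1.63 and 1.44 against 2.36 and 2.40 FPKM.

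Library 1 was above library 2 in both groups for 4 of the 10 members, IGF1R, IGF2R, IRS1 and IRS2, and library 2 was above library 1 in both for 3, IGF2, IGFBP4 and IGFBP6. Over all tested genes these shares were 33.0% and 31.7%. The median size of the difference between libraries of a group was 0.18 (controls) and 0.35 (H2O2) on the log2 scale over the members, against 0.15 and 0.27 over all tested genes. The labels do not say what a library number stands for. A fit with that number as a block is given in the closing section, and the cause of these differences was not tested.

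Counted over the 9 members set by function, 0 passed limma's test at an adjusted p under 0.05 and 9 did not, where 0% of all tested genes passed. At an unadjusted p under 0.05 there was 1 higher, IGFBP3, and 0 lower, against 6.22% of tested genes higher and 4.91% lower. The groups did not overlap for 3 members higher in H2O2 (IGFBP3, IGFBP6 and INSR) and for 2 lower (IGFBP2 and IRS1), against 19.3% and 24% of tested genes. The median log2 difference of the 9 was 0.14, against -0.03 over all tested genes, and 5 of 9 were positive, against 45.7%. The median was -0.04 without control 2 and -0.07 without H2O2 library 1. By mean level, IGF2 went from the seventh of the 10 members in controls to the fifth in H2O2-treated cells, with IGF2R, IGFBP2 and IGF2 within 26.9 to 36.5 FPKM there, and IGFBP3 went from the lowest to the eighth. IGFBP4 and IGFBP6 led in both groups.

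**Figure D4:**
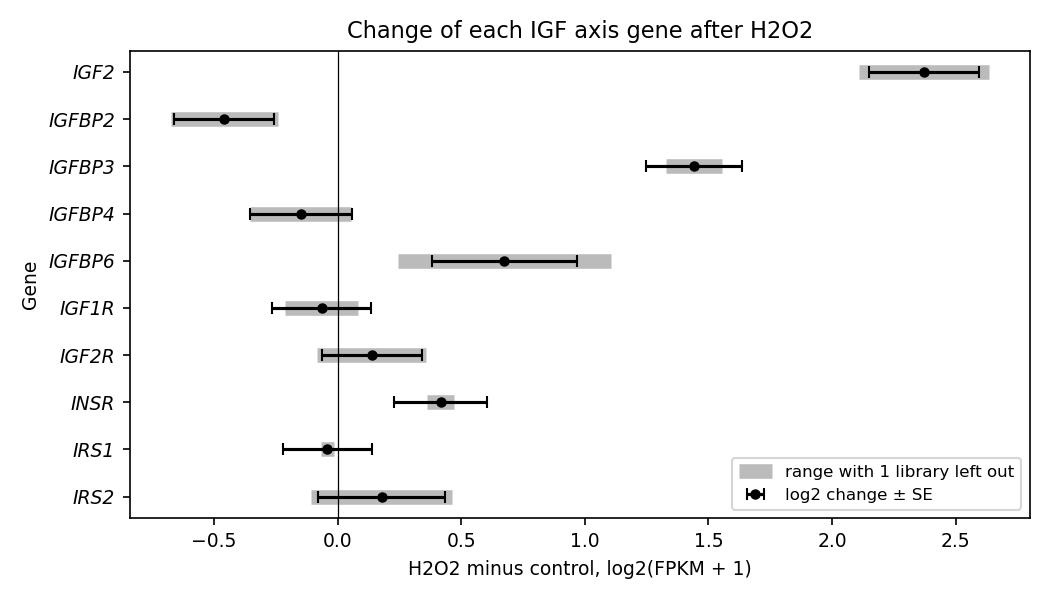
Difference between H2O2 and control in log2(FPKM + 1) for each member, with points and bars for the estimate ± SE and grey bands for the range when 1 library is left out. The bands of IGF2, IGFBP3, IGFBP6 and INSR lie above 0 and those of IGFBP2 and IRS1 below it, the latter close to 0 (-0.067 to -0.016), while the other 4 cross 0; IGF2 was chosen on these values.

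The rest of the pathway was described from 7 lists with 93 symbols, of which 91 had a row and 72 were tested; PLAGL1 and PLAGL2 are not analysed here. By limma, 0 of the 72 passed over all genes. At an unadjusted p under 0.05 there were 4 higher (IGFBP1, HTRA1, SHC1 and KLHL24) and 1 lower (CTCF), where 6.22% and 4.91% of all tested genes were, so the count of the 72 did not exceed the background. The median log2 difference of the 72 was 0.00, with 37 positive and 35 negative.

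Among the other ligands and binding proteins, 2 of 8 were tested. IGFBP1, a stress- and insulin-regulated binding protein 18577 bases from IGFBP3 on chromosome 7, stood at 2.60 and 0.460 FPKM in controls and at 11.04 and 3.30 FPKM in H2O2 libraries. Both H2O2 values lay above both controls, but library 1 was well above library 2 in each group. Its log2 difference was 1.65 ± 0.58 (limma adjusted p = 0.409), and it ran from 0.91 without H2O2 library 1 and 1.00 without control 2 to 2.30 without control 1 and 2.39 without H2O2 library 2. IGFBPL1 overlapped, with a log2 difference of 0.04 that was -0.12 after quantile normalization. The highest value in any library was 0.1 FPKM for IGF1, 0.127 FPKM for IGFBP5, 0.111 FPKM for IGFBP7 and 0.212 FPKM for IGFALS. IGFBP5, which lies 7669 bases from IGFBP2 on chromosome 2, was thus near 0 beside a neighbour at 25.5 to 43.7 FPKM.

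Of the proteases of binding proteins and their inhibitors, 2 of 5 were tested. HTRA1, a secreted serine protease that can cleave IGF binding proteins, stood at 17.0 and 13.6 FPKM in controls and at 24.7 and 20.8 FPKM in H2O2 libraries, with a log2 difference of 0.54 ± 0.19 (limma adjusted p = 0.402). STC2, an inhibitor of the IGFBP4 protease PAPPA, stood at 37.2 and 33.1 FPKM in controls and at 68.7 and 15.6 FPKM in H2O2 libraries. The H2O2 libraries lay on opposite sides of the controls, and the log2 difference was 0.95 without H2O2 library 2 and -1.12 without H2O2 library 1, where it passed (adjusted p = 0.0425; range over all alternatives 0.0425 to 1.00). There too the H2O2 group is 1 library with no spread of its own, and the library left out lay on the other side of the controls. PAPPA itself did not exceed 0.00558 FPKM, and STC1 was listed at 0.

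Of the other receptor and adaptor genes, 12 of 16 were tested, with 9 positive and a median log2 difference of 0.11. Over all tested genes, 45.7% were positive and the median was -0.03. Groups did not overlap for 3 higher and 1 lower, 25% and 8.33% of the 12, against 19.3% and 24% of all tested genes. SHC1, an adaptor that links receptor kinases to RAS, stood at 54.4 and 56.1 FPKM in controls and at 81.0 and 101 FPKM in H2O2 libraries. The groups were well apart, and the log2 difference was 0.70 ± 0.18 (limma adjusted p = 0.306). INPPL1 (SHIP2, a phosphatase that opposes PI3K) and SH2B2 (an adaptor of the insulin receptor) were next by p, at log2 differences of 0.31 and 0.34. For INPPL1 this was 0.15 without H2O2 library 1 and 0.18 without control 2. SH2B2 overlapped between groups, and its difference was 0.057 without control 2 and 0.22 without H2O2 library 1.

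PI3K, AKT and mTOR genes gave 26 tested of 27, with 10 positive and 16 negative and a median log2 difference of -0.09, or 0.09 after rescaling to equal totals. Groups did not overlap for 3 higher and 10 lower, 11.5% and 38.5% of the 26, against 19.3% and 24% of all tested genes. PIK3R1, a regulatory subunit of PI3K, stood at 8.50 and 9.46 against 7.49 and 6.07 FPKM (log2 difference -0.36, or -0.23 without H2O2 library 2; limma adjusted p = 0.537), and PHLPP1, a phosphatase of AKT, at 3.09 and 3.80 against 2.41 and 2.54 FPKM (log2 difference -0.35; adjusted p = 0.575).

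FOXO factors, which AKT holds out of the nucleus, and their targets gave 11 tested of 14, with a median log2 difference of 0.04. KLHL24, a target gene for an adaptor of ubiquitin ligases, stood at 3.13 and 3.01 FPKM in controls and at 4.90 and 5.08 FPKM in H2O2 libraries (log2 difference 0.56 ± 0.17; limma adjusted p = 0.357). SESN3, a sestrin that restrains mTOR signalling, had a log2 difference of 0.42, which was 0.23 without H2O2 library 2 and likewise without control 1. CITED2, a transcriptional regulator, overlapped between groups, at 8.19 and 6.34 FPKM in controls and 7.90 and 13.9 FPKM in H2O2 libraries, and its log2 difference of 0.49 was 0.12 without H2O2 library 2. The factor genes FOXO1, FOXO3 and FOXO4 overlapped between groups, at 3.20 to 4.11, 8.48 to 12.1 and 4.11 to 6.32 FPKM over the 4 libraries.

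Regulators of IGF2 transcription or mRNA gave 7 tested of 11, with a median log2 difference of -0.07 that was 0.11 after rescaling to equal totals. CTCF, the insulator protein bound at the imprinting control region between IGF2 and H19, stood at 42.9 and 43.9 FPKM in controls and at 34.1 and 24.0 FPKM in H2O2 libraries. Both H2O2 libraries were lower, and the log2 difference was -0.58 ± 0.21 (limma adjusted p = 0.409), -0.34 without H2O2 library 2 and -0.83 without H2O2 library 1. The IGF2 mRNA-binding protein genes IGF2BP1, IGF2BP2 and IGF2BP3 were at 17.7 to 22.2, 18.4 to 23.4 and 19.6 to 24.0 FPKM over the 4 libraries, and HMGA1, a chromatin protein, had a log2 difference of 0.32. LIN28B and CTCFL were at or below 0.00693 and 0.0252 FPKM. H19 is a non-coding RNA and is not analysed here.

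Mannose 6-phosphate sorting, the other role of IGF2R, gave 12 tested of 12, with 6 positive, 6 negative and a median log2 difference of -0.01, or 0.17 after rescaling to equal totals. NAGPA, the enzyme that uncovers the mannose 6-phosphate signal, stood at 11.2 and 11.3 FPKM in controls and at 8.84 and 8.21 FPKM in H2O2 libraries (log2 difference -0.36 ± 0.16; limma adjusted p = 0.478). M6PR, the second mannose 6-phosphate receptor, stood at 64.2 and 65.8 against 72.3 and 69.3 FPKM (log2 difference 0.12), and GNPTG, a subunit of the enzyme that adds the signal, had a log2 difference of 0.20, or 0.098 without H2O2 library 2.

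**Figure D5:**
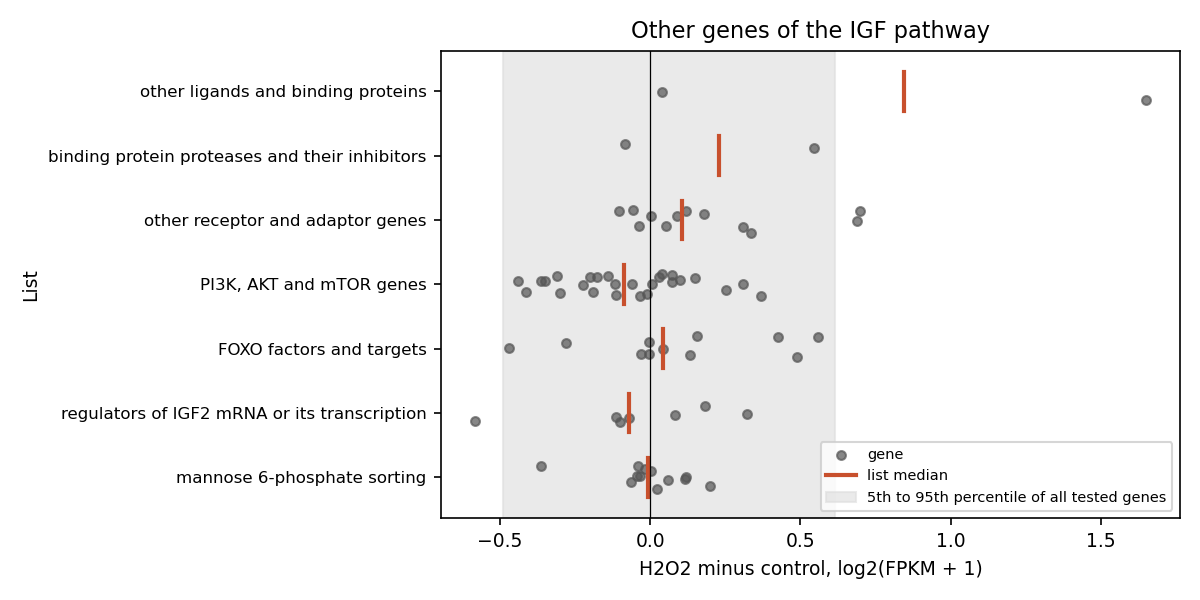
Difference between H2O2 and control in log2(FPKM + 1) for each tested gene of the 7 lists (points, spread vertically at random), with list medians as orange bars and the 5th to 95th percentile of all tested genes in grey (-0.49 to 0.61). Most points lie inside the grey band, and IGFBP1 at 1.65 is the farthest outside it.

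The 5 genes whose profile over the 4 libraries was nearest to that of IGF2, by the distance between log2(FPKM + 1) values centred on each gene's mean, were AKAP12 (0.441), OR51B5 (0.445), APOE (0.544), FLNC (0.554) and ZFP90 (0.604). AKAP12, a kinase A scaffold gene, stood at 16.1 and 15.1 FPKM in controls and at 74.5 and 84.4 FPKM in H2O2 libraries. APOE, a lipid carrier gene, stood at 10.9 and 9.47 against 45.9 and 61.1 FPKM, and ZFP90, a zinc finger gene, at 2.17 and 1.69 against 12.0 and 11.6 FPKM. OR51B5 and FLNC were below 1 FPKM in both controls and were tested through the H2O2 libraries alone. The distance picks genes that differ between groups as IGF2 does, so their direction follows from the choice.

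The 6 epithelial markers summed to 6848 and 5912 FPKM in controls and to 5341 and 5231 FPKM in H2O2 libraries. KRT8, at 3616 and 3281 against 2669 and 2887 FPKM, made up most of that sum together with KRT18. KRT18 stood at 2790 and 2221 against 2298 and 2037 FPKM. EPCAM, KRT8 and VIL1 were lower and CDH1 higher without overlap, while KRT18 and CDX2 overlapped. Of all tested genes, 24% were lower and 19.3% higher without overlap. Markers of other cell types were followed in the same libraries. The 7 fibroblast markers summed to 5.52 and 10.3 FPKM in controls and 6.41 and 13.0 FPKM in H2O2 libraries, the 5 endothelial markers to 0.36 and 0.223 against 2.67 and 2.02 FPKM, and the 5 leukocyte markers to 3.36 and 5.20 against 5.09 and 19.4 FPKM. LUM (2.00 to 6.94 FPKM) and COL1A1 (1.23 to 3.16 FPKM) made up most of the fibroblast sum and overlapped between groups, and COL1A2 and COL3A1 were at or near 0. THY1 stood at 0.361 and 0.159 against 1.37 and 1.93 FPKM (log2 difference 1.07, limma adjusted p = 0.265). PDGFRB stood at 0.798 and 0.903 against 1.71 and 1.00 FPKM. Both were higher in H2O2 libraries without overlap and are named here for that. The filter of 1 FPKM was met by their H2O2 libraries only, and the same holds for TIE1. The p of THY1 thus belongs to a gene picked on its values and is no fair test. TIE1, at 0.0941 and 0.0991 against 2.21 and 1.67 FPKM, made up most of the endothelial sum, and LYZ, at 18.4 FPKM in H2O2 library 2, most of the leukocyte sum there. TIE1, VWF (0.129 and 0.0609 against 0.307 and 0.226 FPKM) and CDH5 (at most 0.0403 FPKM) were higher without overlap. PECAM1 and KDR overlapped. Of the leukocyte markers, CD14 (0.298 and 0.401 against 0.440 and 0.532 FPKM) was higher without overlap and the others overlapped. The 3 hepatocyte markers, of a cell type that makes much IGF and IGFBP protein, summed to at most 1.18 FPKM. The part of these markers in the IGF2 and IGFBP values was not tested. Below 1 FPKM in all 4 libraries were 3 of the 7 fibroblast, 4 of the 5 endothelial, 4 of the 5 leukocyte and 3 of the 3 hepatocyte markers.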

How the data were processed

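RNA-seq libraries of SW620 were made from 1 µg of total RNA with a directional kit, per the labels' protocols. The authors deposited 1 table of FPKM, with 1 column for each library. The submitters' processing notes list STAR 2.5, Cufflinks 2.2.1 and hg38 without saying what each did. No source used here gives the annotation, strand setting or filters. FPKM from Cufflinks are estimates in which reads of overlapping genes are split by a model, and a value of exactly 0 is only said to be listed at 0.

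Values were transformed as log2(FPKM + 1), which understates the change of low genes. Genes that reached 1 FPKM in 2 or more of 4 libraries were tested with limma 3.58.1 in R 4.3.3, with group as the only term, a variance trend, 2 residual and 6.28 total degrees of freedom, two-sided, and Benjamini-Hochberg adjustment over 11318 genes at 0.05. The script was tested on simulated data. There were 12 alternatives, given in the closing section. Means are ± SD over 2 libraries, and log2 differences ± SE.

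The members and lists were chosen with earlier results of these data known. Named genes are the members, up to 3 per list with the smallest p, and the 5 nearest to IGF2 in profile; any other gene is marked as picked on its values or is a list gene given by its level. Of these, 1 gene that the rule names is not reported here. Where a symbol was on more than 1 row (14 symbols), the one with the larger mean was used. Coordinates come from GENCODE release 29 on hg38, where all 19389 identifiers were found. Promoters come from RefSeq on GRCh38.p14, matched by symbol for 9 of 10 members (not IGF2). Relative depth was read from the commonest ratio of values between 0.005 and 0.1 FPKM. Figures were drawn with matplotlib 3.10.9 in Python 3.11.15.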

Additional observations from a re-analysis of the deposited data

How the results depend on the processing

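Over all genes, limma called 0 at an adjusted p under 0.05 (unadjusted, 704 genes higher and 556 genes lower). It called 5 among genes whose mean reached 5 FPKM, 32 after rescaling to equal totals (TPM), and 8 to 140 with 1 library left out, 8 without control 2, 33 without control 1, 31 without H2O2 library 2 and 140 without H2O2 library 1. It called 0 with a pseudocount of 0.1 or 5, no filter, quantile normalization or no variance trend. With the replicate number as a block it called 587 (397 higher, 190 lower), among them IGFBP3 (adjusted p = 0.0019), IGFBP1 (0.000722) and SHC1 (0.0275). The labels do not say that a number pairs libraries. Deviations of same-numbered libraries from their group means correlated across genes (r = 0.451). What such libraries share beyond the number was not tested. Of 117 member values under alternatives, 102 kept their direction and side of the threshold, or for IGF2 moved less than its spread; IGF2 was 1.76 with a pseudocount of 5. After rescaling to equal totals the sign turned for IGF1R (0.10), IGFBP4 (0.036), IRS1 (0.11) and STC2 (0.094), and after quantile normalization for IGFBP4 (0.043), IGFBPL1 (-0.12) and STC2 (0.0049). With 1 library left out, log2 differences ran from -0.21 to 0.083 for IGF1R, -0.082 to 0.36 for IGF2R, -0.35 to 0.056 for IGFBP4, -0.11 to 0.46 for IRS2, -0.38 to 0.46 for IGFBPL1 and -1.12 to 0.95 for STC2. Medians of lists that turned were PI3K, AKT and mTOR genes (0.093 by TPM; -0.17 to 0.045 with 1 library left out), mannose 6-phosphate sorting (0.17 by TPM, 0.069 by quantile; -0.063 to 0.0505), regulators of IGF2 (0.11 by TPM, 0.00498 with no filter; -0.077 to 0.058), FOXO genes (-0.0039 where the mean had to reach 5 FPKM) and the 9 members set by function (-0.067 to 0.25). The cause of these turns was not tested. IGFBP3, INSR and IRS1 had means under 5 FPKM and so no value under that filter.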

Other observations

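GRB10, an imprinted gene for an adaptor that restrains the insulin and IGF1 receptors and one of the list genes, was chosen here after its values were seen. It stood at 7.26 and 1.45 FPKM in controls and at 10.7 and 3.50 FPKM in H2O2 libraries. Library 2 minus library 1 was -1.75 in controls and -1.38 in the H2O2 group on the log2 scale, larger in size than the log2 difference of 0.69 ± 0.65 between groups (SE; limma adjusted p = 0.756). IGFBP1 likewise had library 1 above library 2 in both groups, at 2.60 and 0.460 against 11.04 and 3.30 FPKM.

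EIF4EBP1, a translation repressor that mTOR inactivates, likewise chosen after its values were seen, stood at 374 and 180.0 FPKM in controls and at 264 and 143 FPKM in H2O2 libraries. TXNIP, a thioredoxin-binding protein and FOXO target, was also chosen after its values were seen. It stood at 120.0 and 88.8 FPKM in controls and at 38.2 and 144 FPKM in H2O2 libraries. The H2O2 libraries lay on opposite sides of the controls, as they did for STC2 with the order reversed.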
